A study of Mus musculus with 42 samples.

Results

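Genes of 8 tumour necrosis factor (TNF) superfamily ligands were followed in uterine tissue-resident natural killer (trNK) cells of mice, as levels of RNA in sorted cells, in sorted subsets, in culture with IL-21, and in single cells. They were Tnfsf4 (OX40 ligand), Tnfsf10 (TRAIL), Tnfsf11 (RANKL), Tnfsf14 (LIGHT), Fasl (Fas ligand), Tnf, Lta (lymphotoxin alpha) and Ltb (lymphotoxin beta), 8 of the 54353 genes counted in the bulk libraries and of the 35237 in the single-cell matrix. The genes were picked by name, and Tnfsf4 was included for its rise at gestational day (gd) 8.5, so its levels across gestation are described without a test.

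TNF superfamily ligands are mostly membrane proteins that act as trimers on receptors of a neighbouring cell. Fasl, Tnfsf10, Tnf and lymphotoxin alpha can signal death through receptors with a death domain, whereas Tnfsf4, Tnfsf14, Tnfsf11 and the lymphotoxins signal through TRAF adaptors to NF-kappa B. NK cells are known to use Fas ligand and TRAIL to kill target cells, lymphotoxin beta is anchored in a complex with lymphotoxin alpha at the surface of lymphocytes, and OX40 ligand gives a costimulatory signal to T cells that carry OX40.

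The mice were C57BL/6 females, aged 8 to 12 weeks by the methods, and the single-cell labels give them as wild type (WT). Each of 17 bulk groups had 2 RNA-Seq libraries, 34 in all. In the first experiment, live CD45+NK1.1+NKp46+CD49a+CXCR6- cells were sorted from the uterus before mating (virgin), at gd6.5 or at gd8.5. In the second, such cells at gd8.5 were divided by CD55 and 4-1BB into those low (virginal trNK, trNK-V), intermediate (differentiating trNK, trNK-D) and high (terminal trNK, trNK-T) for both. In the third, sorted trNK cells were cultured for 72 h without IL-21, with 20 ng/ml IL-21, or with IL-21 and the STAT3 inhibitor Stattic. The dose of Stattic is 1 μM in the labels and 1 mM in the methods. By the methods the medium of these cultures also held 10 ng/ml IL-15, and no group had Stattic without IL-21. In the fourth, a time course with another library kit, cells were taken at 0, 6, 24 and 72 h in IL-15 alone (10 ng/ml in the sample characteristics, 15 ng/ml in the treatment protocol) or with 20 ng/ml IL-21. The methods have these cultures begin with uterine trNK cells of virgin or gd6.5 mice, while the study's account of both culture experiments names sorted trNK-V cells of gd6.5 mice. For the single cells, live CD45+NK1.1+NKp46+ cells from 5 pooled virgin uteri and 2 pooled gd8.5 uteri were tagged and mixed. The study speaks of independent experiments, but no source used here ties the 2 libraries of a bulk group to separate mice, cultures or experiments, so the p-values measure only the spread between these libraries, which may be technical.

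Total counts per library were 16422380 to 22956216 across gestation, 11862089 to 20786471 in the subsets, 12189886 to 29537298 in the inhibitor culture and 28541369 to 66468883 in the time course. All 5 NK genes looked up (Ncr1, Klrb1c, Eomes, Klrk1 and Nkg7) had reads in every bulk library. In the time course the 72 h libraries tended to hold fewer genes, with 10724 to 13996 detected against 13340 to 15679 in the 12 earlier ones, the ranges overlapping in 72 h IL-21 replicate 1, and their 10 most abundant genes took 18.2% to 28.0% of the counts against 12.7% to 17.9%. In trNK-D replicate 2 the plasma cell markers summed to 22810 RPKM, against at most 36.9 in any other library, and in gd8.5 replicate 2 and virgin replicate 2 those of erythrocytes to 844 and 224, against at most 12.8. Dendritic cell markers, mostly Cd209a, summed to 149 RPKM in trNK-D replicate 1 and 71.1 in trNK-V replicate 1 against at most 4.69 elsewhere, and stromal markers to 51.9 in trNK-V replicate 1 against at most 5.24. The repeats of virgin trNK cells also differed, and for Ltb this is shown with its values. Levels are given as RPKM, reads per kilobase of gene scaled to the counts of the library, and differences as log2 fold changes with the standard error (SE) of the edgeR quasi-likelihood fit. A gene was called where its Benjamini-Hochberg adjusted p was below 0.05 and its fold above 2, among genes above 10 RPKM in both libraries of any group of the experiment.

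By that filter Tnfsf4, Ltb and Fasl were tested in every experiment, Tnfsf10 in all but gestation, and Tnf in the inhibitor culture alone. Tnfsf11, Tnfsf14 and Lta were below it throughout, so for those the fold and adjusted p come from a second fit with edgeR's lower count filter, in which all 8 genes passed. A gene could pass the filter through a single group, as Ltb did in the subsets (trNK-V) and Tnfsf10 in the inhibitor culture (no IL-21). Calls of such genes against that group are of genes let in by being high there. In bulk RNA, fewer cells of a type and less RNA per cell cannot be told apart.

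The genes lie in separate places except for a tight group on chromosome 17, where in the mm10 build Ltb (35194439 to 35196320, plus strand) is 3060 bases from Tnf (35199381 to 35202007, minus strand), which is 1157 bases from Lta (35203165 to 35205351, minus strand). The gene models of Ltb and Lta overlap the small RNA genes Mir6973a and Mir6974, whose reads could be split with theirs. Tnfsf4 (chromosome 1, 161395409 to 161418410, plus strand) and Fasl (chromosome 1, 161780689 to 161788495, minus strand) are 362278 bases apart. Tnfsf10 is on chromosome 3 (27317028 to 27342427, plus strand), Tnfsf11 on chromosome 14 (78277445 to 78308043, minus strand) and Tnfsf14 on chromosome 17 (57189492 to 57194177, minus strand).

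RefSeq promoter windows of 300 bases (250 before the start and 50 after, GRCm38.p6) were at hand for 7 of the 8 genes, Tnfsf4 being the one not matched. The windows of Ltb (chr17:35194257-35194556, plus strand) and Tnfsf10 (chr3:27316827-27317126, plus strand) are shown, 5′ to 3′, since these are the ligands called lower in trNK-T than in trNK-V cells. Capitals mark matches to the searched motifs, in Ltb a STAT motif 172 bases before the start and a kappa B motif on the other strand 87 bases before it. Distances are counted from the RefSeq start of the window, which for Ltb and Tnfsf10 lies inside the gene span given above.
Ltb: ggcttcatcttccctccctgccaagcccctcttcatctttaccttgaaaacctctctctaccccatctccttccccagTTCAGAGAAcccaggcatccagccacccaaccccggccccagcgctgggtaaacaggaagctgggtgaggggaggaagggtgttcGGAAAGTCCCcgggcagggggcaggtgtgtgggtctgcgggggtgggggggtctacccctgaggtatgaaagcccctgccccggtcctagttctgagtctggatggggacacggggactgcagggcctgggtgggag
Tnfsf10: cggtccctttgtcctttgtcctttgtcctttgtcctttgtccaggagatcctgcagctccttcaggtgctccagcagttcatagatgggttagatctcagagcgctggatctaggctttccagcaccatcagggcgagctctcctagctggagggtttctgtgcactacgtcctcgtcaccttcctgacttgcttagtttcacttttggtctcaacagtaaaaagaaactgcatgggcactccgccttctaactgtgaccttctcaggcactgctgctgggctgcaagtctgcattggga

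Both strands were searched for TTCNNNGAA (STAT), GGG and TTCC with any 3 bases between (kappa B), TGANTCA (AP-1) and GAAA and GAAA with any 2 bases between (interferon response), which were in 8.30%, 5.56%, 7.81% and 3.44% of the 32851 windows in the table. The STAT and kappa B matches of Ltb do not overlap. Lta had STAT matches 152 and 16 bases before its start and Tnfsf14 an AP-1 match 160 bases before its start, while the windows of Tnfsf10, Tnfsf11, Fasl and Tnf held none of these letters.

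**Figure D1:**
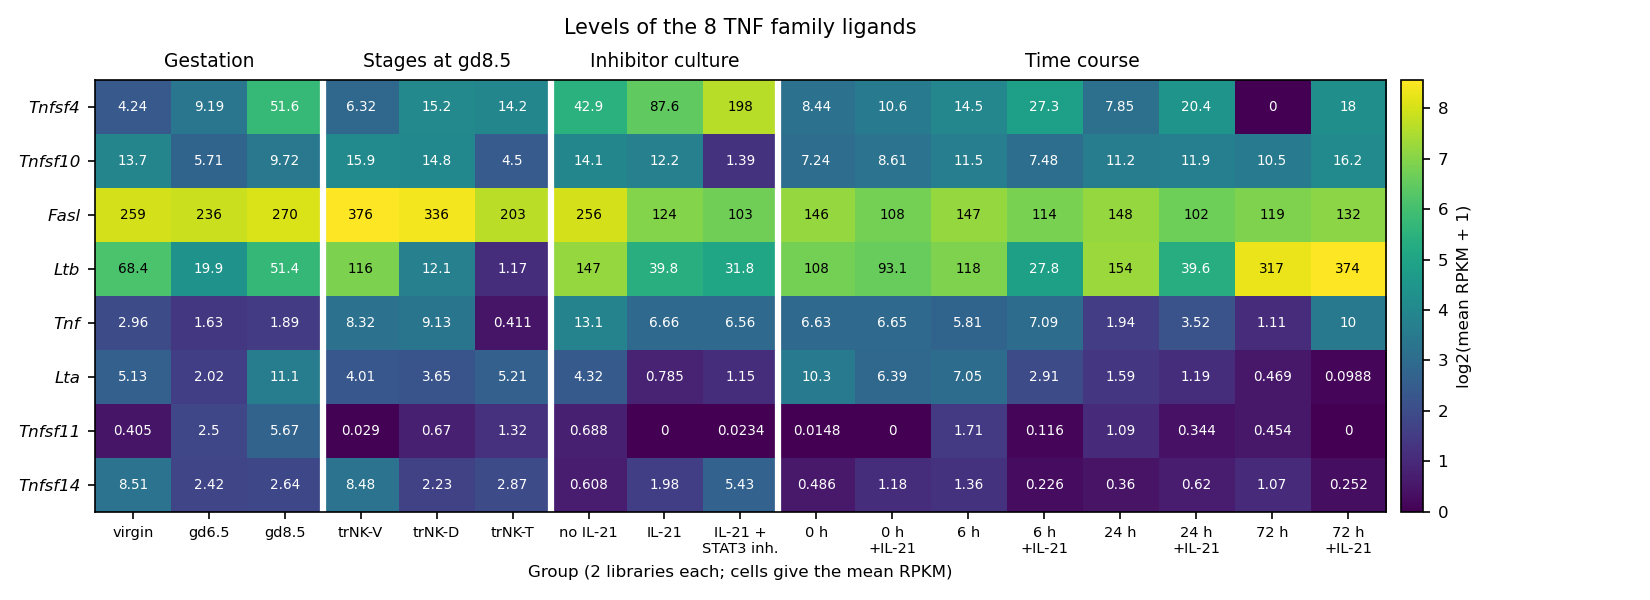
Mean RPKM of the 8 ligand genes (rows) in the 17 bulk groups (columns, by experiment), with the mean of 2 libraries written in each cell and log2(mean RPKM + 1) as colour. Fasl was above 100 RPKM in every group, Ltb ran from 1.17 to 374 and Tnfsf4 from 0 to 198.

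Fasl had the smallest ratio of highest to lowest library. Its 34 libraries ran from 75.7 to 437 RPKM and its group means from 102 to 376. Ltb ran from 1.01 RPKM in a trNK-T library to 568 in a 72 h library with IL-21. Tnf, Lta, Tnfsf11 and Tnfsf14 were at most 17.3, 15.6, 7.42 and 11.1 RPKM in any library, and each was at 0 in at least 1 library.

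The first question was how the ligands stood in trNK cells before and during decidualization. Tnfsf4 was 3.55 and 4.93 RPKM in the virgin libraries, 9.08 and 9.30 at gd6.5, then 53.8 and 49.4 at gd8.5. Its groups did not overlap, and its level at gd8.5 was the highest among the cells taken directly from the uterus. The fitted log2 difference, on which the gene was chosen and which carries no test, was 1.04 (SE 0.26) at gd6.5 against virgin, 3.54 (SE 0.28) at gd8.5 against virgin and 2.50 (SE 0.26) at gd8.5 against gd6.5. Without gd8.5 replicate 2 the latter pair were 3.59 and 2.56.

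Of the other ligands only Fasl and Ltb passed the filter across gestation, and neither was called by edgeR, by DESeq2, by limma-voom or at an unadjusted p under 0.05 with all libraries. At gd6.5 against virgin, 6.22% of the 4504 genes tested were called, at gd8.5 against virgin 0.377%, and at gd8.5 against gd6.5 0%, where edgeR had 261 genes at an unadjusted p under 0.05 and past the fold limit. Ltb was 118 and 19.0 RPKM in the virgin libraries. At gd6.5 its libraries had 7.99 and 31.8 RPKM, at gd8.5 they had 46.5 and 56.2. The virgin repeats were thus farther apart than the group means, and the fitted log2 differences from virgin were −1.87 (SE 0.93, edgeR adjusted p = 0.213) at gd6.5 and −0.48 (SE 0.90, adjusted p = 0.818) at gd8.5. Without virgin replicate 1 the second was 1.37, and without virgin replicate 2 the first was −2.65 and called (adjusted p = 0.0216). The T cell marker list (8 genes) summed to 599 and 468 RPKM in the virgin libraries, and its part in the Ltb values was not tested. Fasl stayed between 209 and 287 RPKM in these 6 libraries.

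Tnfsf11, the ligand of RANK, was 0.761 and 0.0492 RPKM in virgin cells (39 and 2 counts), 1.92 and 3.07 at gd6.5, then 7.42 and 3.92 at gd8.5 (279 and 144 counts). Its gd8.5 libraries were above both virgin ones, but the log2 difference of 3.82 (SE 1.09) had an adjusted p of 0.370 in the edgeR fit with the lower filter (0.000732 with no filter). Tnfsf14, which binds HVEM and the lymphotoxin beta receptor, stood highest in virgin cells, at 11.1 and 5.95 RPKM, against 2.16 and 2.68 at gd6.5 and 2.64 in both libraries at gd8.5. Its log2 difference from virgin was −1.83 (SE 0.48, adjusted p = 0.141) at gd6.5 and −1.68 (SE 0.48, adjusted p = 0.370) at gd8.5 in that edgeR fit. Tnfsf10 was 19.3 and 8.16 RPKM in virgin cells, 4.46 and 6.95 at gd6.5, then 8.39 and 11.04 at gd8.5, with a log2 difference of −1.28 (SE 0.41, edgeR adjusted p = 0.189, or 0.00164 with no filter) at gd6.5 against virgin. Tnf stayed under 5 RPKM and Lta under 16 RPKM in all 6 libraries.

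**Figure D2:**
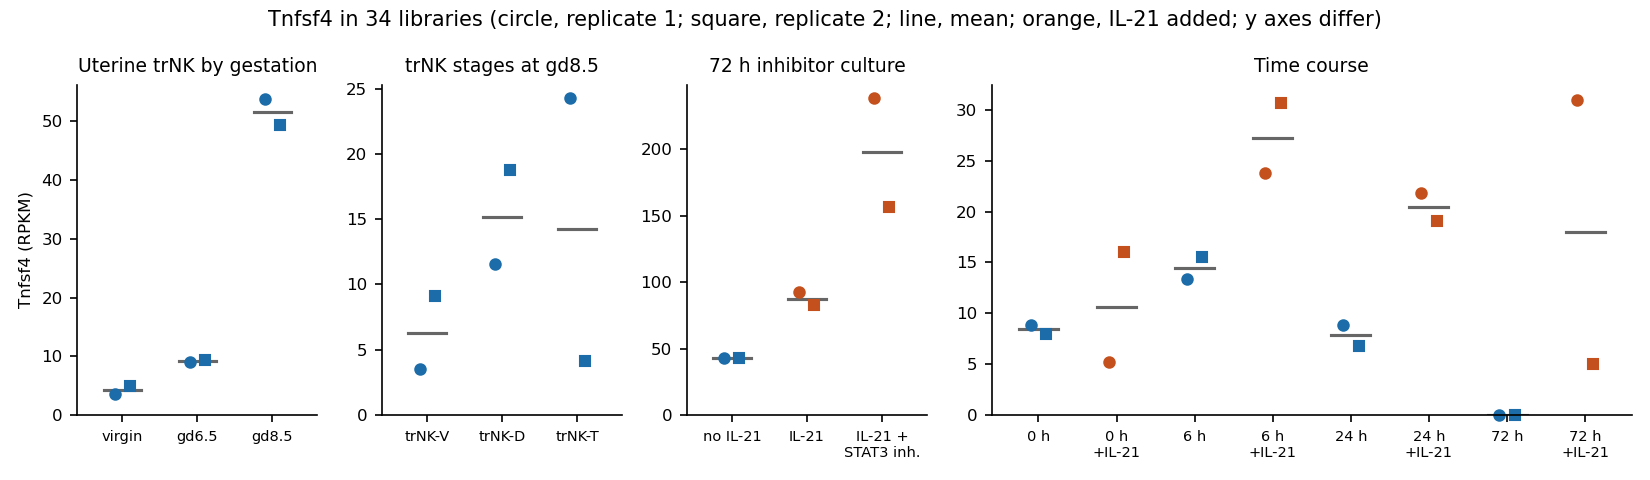
Tnfsf4 in every bulk library, in RPKM, with circles for replicate 1, squares for replicate 2, a line at the mean of each group, and orange for cultures with IL-21. The y axes differ between the 4 experiments; the gd8.5 libraries were at 53.8 and 49.4, and the 72 h libraries of the time course without IL-21 were at 0.

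The subsets at gd8.5 asked how the ligands stood as trNK cells differentiate. Ltb was lower at each later stage, with 95.6 and 136 RPKM in trNK-V, 17.4 and 6.84 in trNK-D and 1.01 and 1.33 in trNK-T cells. The subsets did not overlap. Ltb was lower in trNK-T than in trNK-V cells by a log2 difference of −6.63 (SE 0.57, edgeR adjusted p = 0.00181) and lower in trNK-T than in trNK-D cells by −3.38 (SE 0.52, adjusted p = 0.0404), while trNK-D against trNK-V gave −3.26 (SE 0.47, adjusted p = 0.0562). The first call held without any 1 of the libraries (adjusted p 0.00828 to 0.0149), and the second was lost without trNK-D replicate 1, trNK-T replicate 1 or trNK-T replicate 2 (up to 0.195). Without trNK-D replicate 2, the library with plasma cell markers, trNK-T against trNK-D gave −3.89 (adjusted p = 0.0222) and trNK-D against trNK-V −2.74 (adjusted p = 0.111).

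Lymphocytes of other kinds also make lymphotoxin beta. The 8 T cell markers summed to 531 and 572 RPKM in trNK-V, 398 and 389 in trNK-D and 382 and 237 in trNK-T cells, and the 6 markers of conventional NK (cNK) cells to 812.03 and 1295, 606 and 491, and 245 and 247. Most of the cNK sum was 1 gene, Klra8 (Ly49H), at 769 and 1256, 585 and 468, and 238 and 244 RPKM, while Itgam, Itga2, Klf2 and S1pr5 had medians of 0.68, 1.19, 0.064 and 0 over the 34 libraries. The B cell markers other than Ighm summed to 4.24 and 0 RPKM in trNK-V, 0 and 18.2 in trNK-D and 0.091 and 0 in trNK-T cells. Ighm itself was 249 and 298, 219 and 238, and 189 and 169 RPKM. Over all 34 bulk libraries Ms4a1 was at 0, and Cd4, Cd5, Cd8a and Cd3e were at most 0.054, 0.77, 2.11 and 6.42 RPKM, whereas Trbc2 (135 to 627, median 374), Cd3g (13.7 to 183, median 47.9), Cd3d (median 21.2) and Trac (median 19.0) made up the T cell sum. By the study's account the sort kept lineage-negative CD49a+ cells, a gate that leaves out cells with surface CD3 or CD5 and CD49a- cNK cells, at high purity. The part of the T and cNK markers in the Ltb values was not tested.

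Tnfsf10 was 17.6 and 14.2 RPKM in trNK-V, 18.3 and 11.4 in trNK-D and 6.72 and 2.27 in trNK-T cells. It was lower in trNK-T than in trNK-V cells (log2 difference −1.81, SE 0.51, edgeR adjusted p = 0.0350), and trNK-T against trNK-D gave −1.72 (SE 0.51, adjusted p = 0.120). The call was lost without trNK-V replicate 1, trNK-V replicate 2 or trNK-T replicate 2 (adjusted p up to 0.110). Of the 4 ligands tested, 2 (Ltb and Tnfsf10) were thus called lower in trNK-T against trNK-V cells and 0 higher, where 21.2% of all 4683 genes tested were called in either direction. In trNK-T against trNK-D cells 1 was called lower (1.75% of all genes called), and in trNK-D against trNK-V cells 0 were by edgeR (0.32%). In the latter 1 (Ltb) was called at an unadjusted p, by DESeq2 and by limma-voom, where 265, 187 and 32 of the 4683 genes were. The median log2 difference of these 4 ligands was −1.35 for trNK-T against trNK-V cells, beside −0.02 over all genes. It includes Ltb, which passed the filter only through trNK-V cells, where it was high, and leaves out the ligands below the filter. Of those left out, Tnf and Tnfsf14 were lower in both trNK-T libraries than in trNK-V cells, Tnfsf11 was higher and Lta overlapped.

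Fasl was 396 and 355 RPKM in trNK-V, 437 and 234 in trNK-D and 228 and 178 in trNK-T cells. Both trNK-T libraries were below all the others, with log2 differences of −0.89 (SE 0.29, edgeR adjusted p = 0.0564) from trNK-V and −0.73 (adjusted p = 0.205) from trNK-D cells. Tnfsf4 was 3.55 and 9.09 RPKM in trNK-V, 11.5 and 18.8 in trNK-D and 24.3 and 4.16 in trNK-T cells. Its trNK-T repeats lay on either side of the trNK-D values, and neither trNK-D (log2 difference 1.27, SE 0.84, adjusted p = 0.420) nor trNK-T (1.17, SE 0.84, adjusted p = 0.302) passed the edgeR test against trNK-V cells. Without trNK-T replicate 1 the latter was −0.59. All 6 subset libraries were below the 49.4 and 53.8 RPKM of unsplit gd8.5 trNK cells, which were sorted and counted in another experiment.

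Of the 3 clustered genes, Ltb and Tnf were both lowest in trNK-T cells, and Lta could not be ordered. Tnf was 7.87 and 8.78 RPKM in trNK-V, 15.4 and 2.82 in trNK-D and 0 and 0.823 in trNK-T cells (log2 difference of trNK-T from trNK-V −4.16, adjusted p = 0.139 in the edgeR fit with the lower filter and 3.77e-05 with no filter). Lta was 0.0469 and 7.98, 6.16 and 1.14, and 0 and 10.4 RPKM, so its repeats spanned the subsets. Tnfsf14 was lower in the trNK-T (4.10 and 1.64) and trNK-D (0.599 and 3.85) than in the trNK-V libraries (9.44 and 7.52 RPKM). Tnfsf11 was 0.058 and 0 RPKM in trNK-V, 0 and 1.34 in trNK-D and 1.42 and 1.21 in trNK-T cells, with a log2 difference of 5.50 for trNK-T against trNK-V cells and an adjusted p of 0.223 in that fit.

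**Figure D3:**
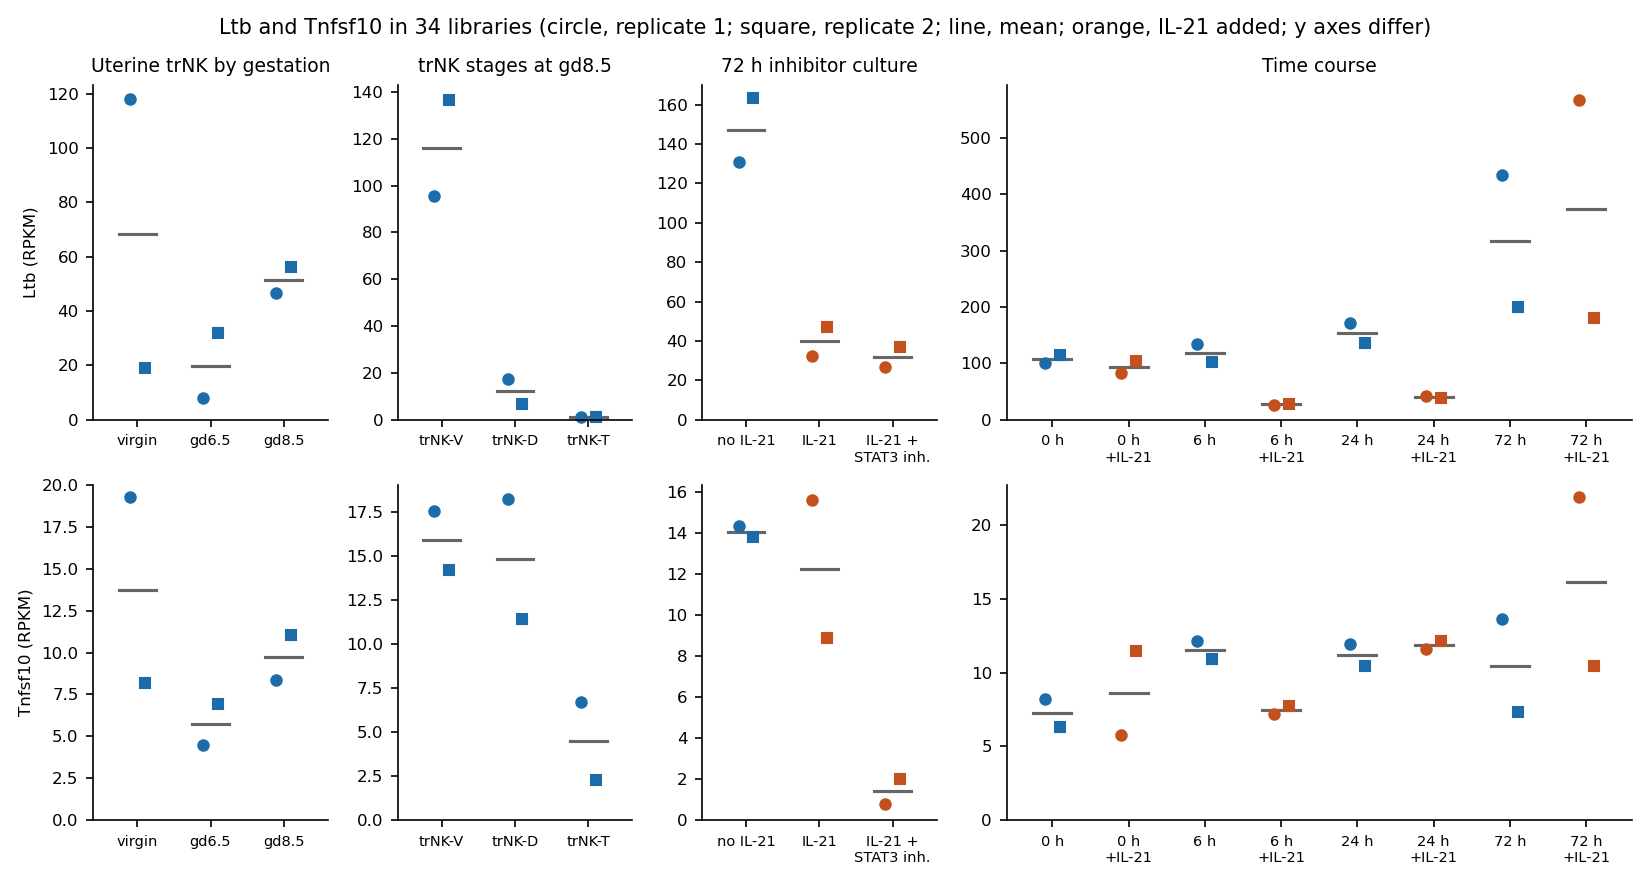
Ltb (top) and Tnfsf10 (bottom) in every bulk library, in RPKM, with circles for replicate 1, squares for replicate 2, a line at each group mean, orange for cultures with IL-21, and y axes that differ between panels. Ltb was 1.01 and 1.33 in trNK-T cells and below 50 in every library with IL-21 at 6 h, at 24 h or in the inhibitor culture.

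In the inhibitor culture the question was how the ligands stood with IL-21 and with the STAT3 inhibitor added to it. No group had the inhibitor alone, so its own effect and one on the IL-21 response cannot be told apart. Tnfsf4 was 42.7 and 43.1 RPKM without IL-21, 92.7 and 82.5 with IL-21, and 239 and 156 with IL-21 and the inhibitor. The groups did not overlap. IL-21 against none gave a log2 difference of 1.22 (SE 0.33, edgeR adjusted p = 0.200), the inhibitor with IL-21 against IL-21 gave 1.27 (SE 0.33, adjusted p = 0.0952), and the inhibitor with IL-21 against neither gave 2.49 (SE 0.34, adjusted p = 0.0102). Only the last was called. It was lost without either control library, and under edgeR's lower count filter (adjusted p = 0.0544). Its log2 difference was 2.21 to 2.76 when 1 library was left out.

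Ltb stood lower in both IL-21 groups, at 131 and 163 RPKM without IL-21, 32.5 and 47.1 with IL-21 and 26.6 and 36.9 with IL-21 and the inhibitor. The log2 difference for IL-21 against none was −1.71 (SE 0.36, edgeR adjusted p = 0.107) and for IL-21 with the inhibitor against none −1.92 (SE 0.36, adjusted p = 0.0280), the latter being lost when any 1 of the 4 libraries compared was left out (0.0736 to 0.125). With the replicate number as a block the latter was also lost. Tnfsf10 was 14.3 and 13.8 RPKM without IL-21 and 15.6 and 8.87 with it, but 0.778 and 2.00 with IL-21 and the inhibitor. It was called lower with the inhibitor against IL-21 (log2 difference −3.05, SE 0.59, edgeR adjusted p = 0.0435) and against none (−3.05, SE 0.59, adjusted p = 0.0307). The first was lost without any 1 library (0.0511 to 0.165), the second without either control library or inhibitor replicate 1 (up to 0.0985), and both with the replicate number as a block. Tnfsf10 passed the filter in this culture only through the libraries without IL-21, where it was high. Under edgeR's lower count filter these calls of Ltb and Tnfsf10 were also lost. The 3 comparisons of this culture share libraries, so their values are not independent.

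Of the 5 ligands tested, 0 were called by edgeR for IL-21 against none (0.289% of 4158 genes called). For the inhibitor with IL-21, 1 was called against IL-21 (2.96%) and 3 against none (4.74%). For IL-21 against none 2 ligands were called at an unadjusted p and 2 by DESeq2, where 298 and 162 of the 4158 genes were. Fasl was 280.1 and 231 RPKM without IL-21, 146 and 103 with IL-21 and 106 and 100.2 with the inhibitor, a log2 difference of −0.84 (SE 0.32, edgeR adjusted p = 0.461) with IL-21 and −1.02 (SE 0.32, adjusted p = 0.117) with IL-21 and the inhibitor. Tnf was 13.7 and 12.46 RPKM without IL-21, 6.86 and 6.47 with it and 5.74 and 7.39 with the inhibitor (IL-21 against none −0.79, adjusted p = 0.746). Lta was 4.68 and 3.97 RPKM without IL-21 and 0.712 and 0.858 with it. Tnfsf11 had 38 and 19 counts without IL-21 and 0 in both libraries with IL-21. Against a floor of 3 counts per library, which covers counting error only, it was at least 6.56-fold lower there. Tnfsf14 was 1.22 and 0 RPKM without IL-21, 2.84 and 1.12 with it and 7.75 and 3.11 with the inhibitor.

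The 4 trNK markers (Itga1, Eomes, Ncr1 and Klrb1c) moved with these groups, summing to 1099 and 966 RPKM without IL-21, 313 and 367 with IL-21 and 228 and 234 with the inhibitor, as did the 8 T cell markers (571 and 509, 322 and 441, and 236 and 287 RPKM). Their part in the ligand values was not tested.

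**Figure D4:**
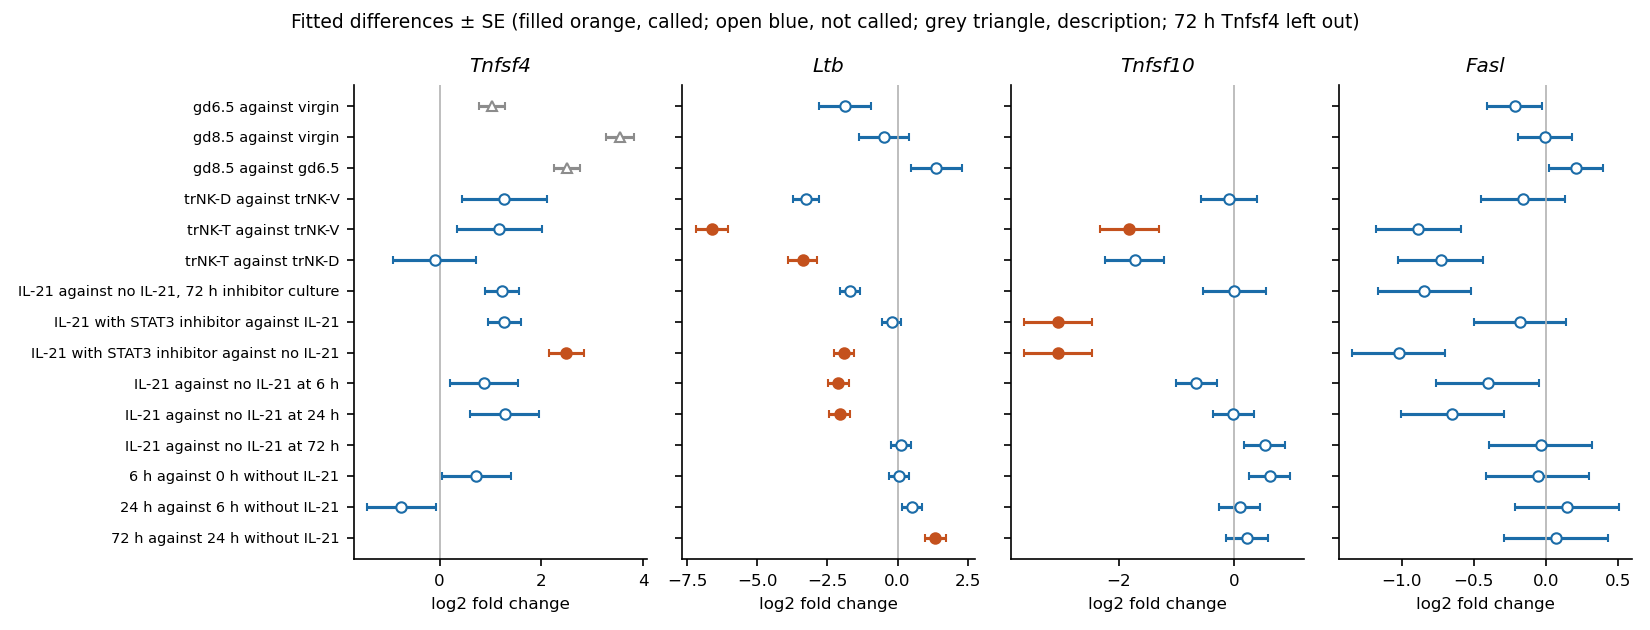
Log2 fold change with its standard error for Tnfsf4, Ltb, Tnfsf10 and Fasl in the comparisons where each was tested, with filled orange points for calls, open blue points for values that did not pass and grey triangles for the gestation values of Tnfsf4, which carry no test. Ltb lay at −6.63 in trNK-T against trNK-V cells; comparisons of Tnfsf4 with the 72 h libraries at 0 are left out.

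The time course asked when IL-21 acts. At the time labelled 0 h Ltb was 102 and 115 RPKM without and 82.5 and 104 with IL-21. Ltb was already lower at 6 h, at 135 and 102 RPKM in IL-15 alone against 26.8 and 28.8 with IL-21, and at 24 h, at 171 and 136 against 41.3 and 37.8. The log2 difference was −2.12 (SE 0.37, edgeR adjusted p = 0.0146) at 6 h and −2.06 (SE 0.37, adjusted p = 0.0210) at 24 h. Neither call held when any 1 of its 4 libraries was left out (0.0686 to 0.151 at 6 h and 0.102 to 0.251 at 24 h). At 72 h Ltb was 434 and 200.3 RPKM in IL-15 alone and 568 and 181 with IL-21, with the treatments overlapping (0.11, SE 0.37, adjusted p = 0.893). That value was −0.27 without 72 h replicate 2 and −0.63 without 72 h IL-21 replicate 1.

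The fall of Ltb with IL-21 was thus larger at the earlier times, and the difference of the IL-21 effects itself passed the test, at 2.23 (SE 0.51, edgeR adjusted p = 0.0341) for 72 h minus 6 h and 2.17 (SE 0.51, adjusted p = 0.0395) for 72 h minus 24 h on the log2 scale, beside medians of 0.14 and 0.16 over all genes. The first was lost without either 6 h library, either 6 h IL-21 library or 72 h IL-21 replicate 1 (up to 0.126). The second was lost without either 24 h library, either 24 h IL-21 library, 72 h replicate 2 or 72 h IL-21 replicate 1 (up to 0.167). In IL-15 alone Ltb rose from 24 h to 72 h (log2 difference 1.35, SE 0.37, edgeR adjusted p = 0.0284), a call lost without 24 h replicate 1, 24 h replicate 2 or 72 h replicate 1 (up to 0.181). The T cell markers summed to 556 and 546 RPKM at 6 h without and 449 and 423 with IL-21, and to 549 and 609 against 429 and 470 at 24 h. The cNK markers summed to 903 and 1053 against 798 and 738, and to 1509 and 1479 against 756 and 976, again mostly Klra8. At 72 h the T cell markers summed to 743 and 367 RPKM without and 734 and 662 with IL-21, the cNK markers to 2314 and 2735 and to 2201 and 2911, and the markers of dividing cells to 13.0 and 0.556 and to 91.9 and 44.9. B cell markers other than Ighm summed to at most 0.432 RPKM in the 8 libraries of 6 h and 24 h, while Ighm was 246 and 166 without against 108 and 119 with IL-21 at 6 h and 156 and 152 against 91.4 and 78.6 at 24 h. The genes detected at 72 h are given above. The part of any of these in the Ltb values was not tested.

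Tnfsf4 was 8.88 and 8.002 RPKM at 0 h, 13.4 and 15.5 at 6 h, 8.90 and 6.81 at 24 h and 0 in both libraries at 72 h in IL-15 alone. With IL-21 it was 5.17 and 16.04 RPKM at the time labelled 0 h, 23.8 and 30.7 at 6 h, 21.8 and 19.1 at 24 h, and 30.9 and 5.00 at 72 h. From 6 h on, both libraries with IL-21 were above both without it. At 6 h (log2 difference 0.87, SE 0.67, edgeR adjusted p = 0.764) and 24 h (1.28, SE 0.68, adjusted p = 0.431) it did not pass. At 72 h its 2085 and 263 counts with IL-21 against 0 gave an edgeR adjusted p of 0.000122. By the floor of 3 counts per library, which covers counting error only, it was at least 374-fold higher (644-fold for replicate 1 and 104-fold for replicate 2). This call held without any 1 library (up to 0.000711) but not in a fit of these 4 libraries alone (adjusted p = 0.416).

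The fall of Tnfsf4 from 24 h to 72 h in IL-15 alone also passed (edgeR adjusted p = 0.000168, at least 163-fold lower by that floor), but not in a fit of those 4 libraries alone (0.0681). The IL-21 effect at 72 h differed from that at 6 h (adjusted p = 0.000691) and from that at 24 h (adjusted p = 0.000918). Both rest on the 72 h libraries at 0. In these, 6 markers of dividing cells summed to 13.0 and 0.556 RPKM without IL-21 and to 91.9 and 44.9 with it, against 229 to 566 in the 12 earlier libraries, and both libraries without IL-21 had fewer genes detected than any earlier library. The part of these in the Tnfsf4 values was not tested. In the inhibitor culture, also of 72 h without IL-21 and with IL-15 by the methods, Tnfsf4 stood at 42.7 and 43.1 RPKM. Those libraries were made with another kit.

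In the time course 4 ligands were tested. For IL-21 at 6 h 1 was called (1.97% of 3503 genes), at 24 h 1 (1.66%) and at 72 h 1 (8.08%). In IL-15 alone 0 were called for 6 h against 0 h (0% of genes, with 36 at an unadjusted edgeR p under 0.05 and past the fold limit), 0 for 24 h against 6 h (0.0856%) and 2 for 72 h against 24 h (14.8%). For the difference of the IL-21 effects the counts were 0 for 24 h minus 6 h (0% of genes, 41 unadjusted), 2 for 72 h minus 6 h (4.17%) and 2 for 72 h minus 24 h (4.22%). The effects at the several times share no library, but each difference with 72 h uses the same 4 libraries at 72 h. Tnfsf10 was 6.28 to 13.7 RPKM in IL-15 alone and 5.74 to 21.95 with IL-21, and at 6 h its libraries with IL-21 (7.22 and 7.74) were below those without (12.1 and 10.9; log2 difference −0.66, adjusted p = 0.537). Fasl was 110 and 93.2 RPKM at 24 h with IL-21 against 167 and 129 without it (−0.65, adjusted p = 0.458). At 72 h it was 81.5 and 156 in IL-15 alone and 189 and 75.7 with IL-21. Tnf was 0 and 2.23 RPKM at 72 h in IL-15 alone and 17.3 and 2.76 with IL-21. Tnfsf11 was 2.54 and 0.888 RPKM at 6 h in IL-15 alone against 0 and 0.232 with IL-21, and 1.37 and 0.803 against 0.293 and 0.394 at 24 h. Tnfsf14 was at most 2.72 RPKM, and Lta at most 15.5, in all 16 libraries.

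Ranked by group mean, Tnfsf4 ran from 198 RPKM with IL-21 and the inhibitor through 87.6 with IL-21 in that culture, 51.6 at gd8.5, 42.9 in that culture without IL-21 and 27.3 with IL-21 at 6 h, none of which overlapped the next in order. The libraries with IL-21 at 6 h (23.8 and 30.7) did overlap those further down of 72 h with IL-21 (5.00 and 30.9) and trNK-T (24.3 and 4.16). The groups between 20.4 and 10.6 RPKM (24 h and 72 h with IL-21, trNK-D, 6 h in IL-15 alone, trNK-T and 0 h with IL-21) each overlapped the next in order. They were followed by gd6.5 (9.19), 0 h (8.44), 24 h in IL-15 alone (7.85), trNK-V (6.32), virgin (4.24) and 72 h in IL-15 alone (0). The order sets libraries of 4 separately made tables side by side. Ltb was highest in the time course at 72 h (374 with IL-21 and 317 without) and lowest in trNK-D (12.1) and trNK-T cells (1.17).

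Over the 17 group means of log2(RPKM + 1), each centred on the mean of its experiment, Necap1, Aptx, Plscr1, Gabarapl1 and Htatip2 were the 5 of 5677 genes most like Tnfsf4, with Pearson's r of 0.868, 0.867, 0.854, 0.848 and 0.841. These are descriptions with no test, over groups that share an experiment and its library kit, and they lean on the group at 72 h in IL-15 alone, where Tnfsf4 was at 0. Over the other 16 groups, a choice made after seeing the data, r was 0.691, 0.691, 0.71, 0.697 and 0.701, and the genes ranked 13, 12, 5, 11 and 8. Necap1 had means of 8.36 RPKM in virgin cells, 11.9 at gd8.5, and 6.42, 8.27 and 7.01 in the inhibitor culture without IL-21, with it and with the inhibitor, and Aptx 5.67, 6.87, 7.64, 6.02 and 14.9 in the same order. Plscr1, a phospholipid scramblase, had a mean of 79.4 RPKM in virgin cells, 126 at gd8.5, and 183, 222 and 185 in the inhibitor culture without IL-21, with it and with the inhibitor. Gabarapl1, of the autophagy protein family, had 9.07, 20.1, 38.3, 31.3 and 101 RPKM in the same order. Among the ligands r with Tnfsf4 was 0.287 for Tnf, −0.216 for Fasl, −0.244 for Tnfsf10 and −0.447 for Ltb. Over the 16 groups it was −0.11, −0.423, −0.356 and −0.377 in the same order.

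Of the rest of the pathway, 10 further ligands, 11 receptors and 19 signalling genes were looked up, of which 1 or 2 ligands, 0 to 3 receptors and 3 to 12 signalling genes passed the filter in an experiment. In trNK-T against trNK-V cells 1 of 2 further ligands, 1 of 2 receptors and 1 of 12 signalling genes were called lower and 0 higher, where 21.2% of all genes tested were called. These were Tnfsf8, the ligand of CD30 (21.4 and 14.8 RPKM in trNK-V against 3.47 and 1.24 in trNK-T cells, log2 difference −2.93, edgeR adjusted p = 0.0154), the TNF receptor Tnfrsf1a (19.2 and 9.62 in trNK-V against 5.51 and 3.45 in trNK-T cells, −1.68, adjusted p = 0.0383), and the adaptor Traf1 (32.1 and 40.6 in trNK-V against 19.9 and 14.1 in trNK-T cells, −1.09, adjusted p = 0.0136). With IL-21 and the inhibitor against none, 1 of 2 further ligands, 1 of 3 receptors and 1 of 11 signalling genes were called higher and 0 lower, where 4.74% of all genes tested were called.

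The ligand was Tnfsf9, which binds the 4-1BB used to sort the subsets, at 15.8 and 6.00 RPKM without IL-21, 14.9 and 18.3 with it and 45.3 and 72.0 with the inhibitor (log2 difference 2.72 against none, edgeR adjusted p = 0.0372). The receptor was Tnfrsf23, which binds TRAIL but lacks a death domain, at 0.742 and 2.04, 0.642 and 0.431, and 20.6 and 16.95 RPKM in the same order (4.04 against none, adjusted p = 0.0155), and it was also called against IL-21 alone (5.22, adjusted p = 0.0136). The signalling gene was Cflar, which encodes the caspase-8 inhibitor c-FLIP, at 3.70 and 5.77, 9.68 and 10.4, and 14.1 and 11.5 RPKM (1.72 against none, adjusted p = 0.0343). Tnfrsf23 and Cflar passed the filter only through the group with IL-21 and the inhibitor, the group in which they were called higher. Tnfrsf4, the receptor of Tnfsf4, was 0 to 7.94 RPKM in the 34 libraries and passed the filter in no experiment. In every other comparison none of these genes was called by edgeR among those tested.

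Where in the sorted NK1.1+NKp46+ cells the ligands were found was read from the single-cell matrix. Its 15175 cells carry no tag of their mice, so virgin and gd8.5 cells form 1 sample and no test was made. The study's limits of 200 and 2500 per cell kept 8907 cells when read as genes (median 2576 UMIs, unique molecular identifiers) and 4338 when read as UMIs, as the methods word them. For each gene the UMIs of a class were added up and scaled to the class total (CPM), with exact Poisson 95% intervals, which cover counting error only. Cells were clustered without the 42 ligand and receptor genes, and named after marker genes by limits set once the clusters had been seen.

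Among 4082 trNK-like cells Tnfsf4 was 20.6 CPM (18.3 to 23.1, 293 UMIs), and within them it differed by cluster. The cluster led by the granzyme genes Gzmc and Gzmf (1236 cells) had 37.5 CPM (32.7 to 42.9), above the cluster led by Crtam and Xcl1 (10.7, 7.47 to 14.9) and the dividing cluster (9.83, 6.16 to 14.9). Terminal-stage trNK-like cells (713 cells) had 6.17 CPM (3.95 to 9.17), cNK-like cells 3.11 (1.14 to 6.77) and macrophage-like cells 2.33 (1.01 to 4.60). The terminal-stage class was named from Scin, Epas1 and Ctsg, and of the NK and trNK markers only Eomes reached the limits there. Cd55 and Tnfrsf9 (4-1BB), the sort markers of trNK-T cells, did not, so the class need not match the sorted trNK-T cells. In B-like cells 0 of 628447 UMIs were of Tnfsf4, which allows up to 4.77 CPM by 3 UMIs. The median depth was 4948 UMIs in the granzyme cluster, 2700 in the Crtam cluster, 4683 in the dividing cluster and 5685 in terminal-stage cells, and the part of depth in these levels was not tested.

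The upper limit weighed on Tnfsf4 more than on the other ligands, since cells above 2500 genes held most of it. Of its 2111 UMIs in the files, 16.5% were in the 8907 kept cells. The share was 23.8% for Tnfsf11, 38.8% for Fasl, 52.5% for Tnfsf10, 53.5% for Tnfsf14, 55.1% for Lta, 68.4% for Tnf and 81.3% for Ltb. These were not set beside the share of all UMIs in the kept cells. With no upper limit (13076 cells, 99.2% of its UMIs) Tnfsf4 was 36.6 CPM (34.9 to 38.4) in trNK-like cells and 54.2 (50.4 to 58.2) in a cluster of 1495 cells, with a median of 8341 UMIs, whose top genes by fold were Ccl1, Tnfsf4 and P2ry14. The terminal-stage markers were then split between 2 clusters. One of 1909 cells, unnamed by the marker limits, carried Scin and Epas1 and shared Cdh23, Tdrd9 and Tmem40 among its top genes with the terminal-stage cells below the limit, and had 13.2 CPM (11.5 to 15.2). The other, of 953 trNK-like cells with a median of 13287 UMIs, carried Ctsg and Cd55 and had 42.6 CPM (39.3 to 46.1). No doublet was marked by the caller used, which therefore did not work here, so cells that hold more than 1 cell's RNA may be among these. With the limits read as UMIs, trNK-like cells had 3.80 CPM. There a cluster with Gzmf, Gzmd and Gzme among its top genes was named terminal-stage and is not in that value. The class named trNK-like thus held different clusters under each limit, so depth and class membership cannot be told apart in these levels.

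**Figure D5:**
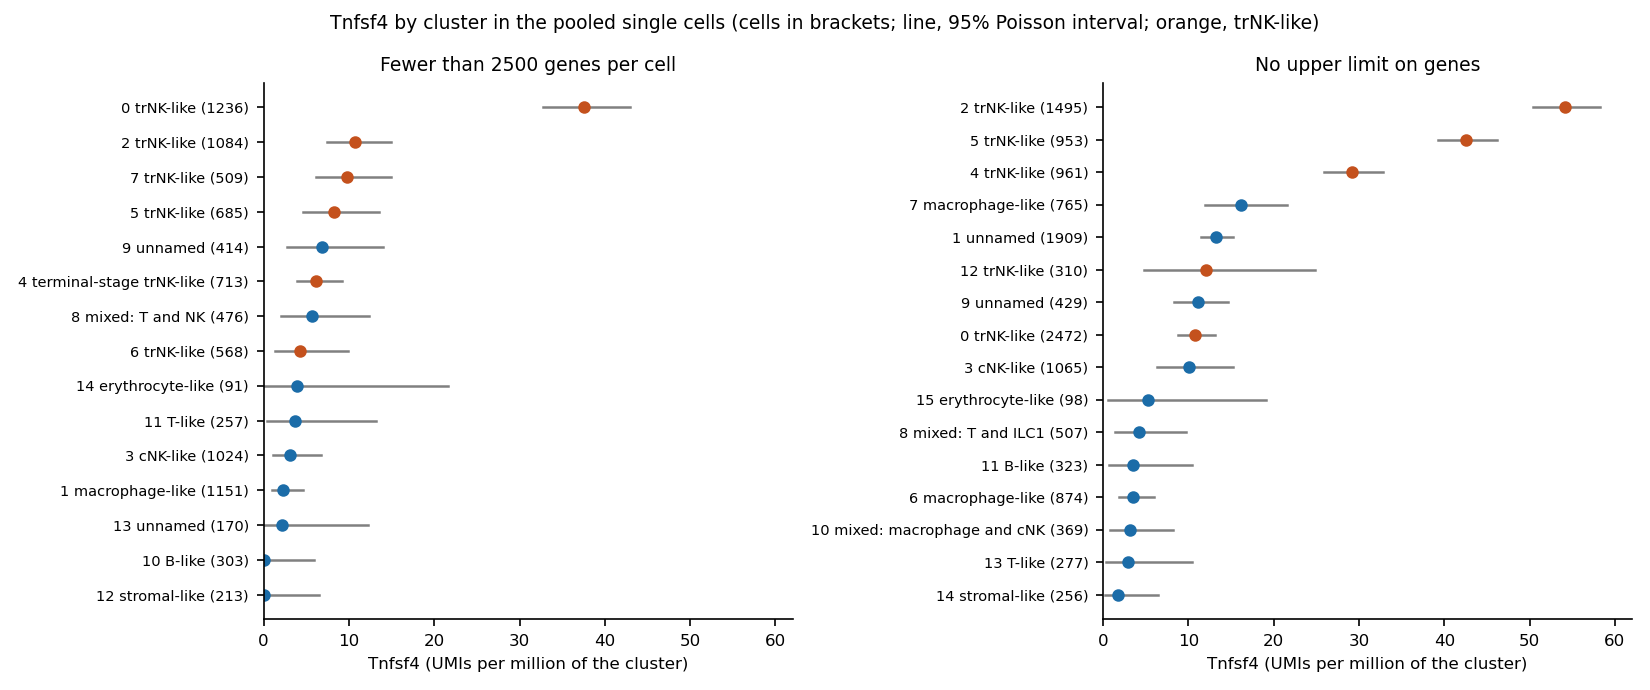
Tnfsf4 in CPM (x axis) by cluster of at least 50 cells, with exact Poisson 95% intervals, for cells below 2500 genes (left) and with no upper limit (right), and trNK-like clusters in orange. A single trNK-like cluster stands above the rest on the left at 37.5, and clusters at 54.2 and 42.6 lead on the right.

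Ltb, in contrast, was lowest in terminal-stage trNK-like cells at 1.03 CPM (0.28 to 2.63). Among trNK-like clusters it was 173 in the one led by Cited4, 114 in the Crtam cluster and 5.04 in the granzyme cluster, with 62.0 (58.0 to 66.2) over all trNK-like cells, or 23.0 (21.6 to 24.4) with no upper limit. The highest levels in classes of over 50 cells were 384 (334 to 439) in T-like and 339 (295 to 388) in B-like cells. Among classes of that size Tnfsf10 was likewise lowest in terminal-stage cells at 3.34 CPM (1.78 to 5.71), with 72.8 (68.4 to 77.3) in trNK-like cells (45.1 with no upper limit). It was 220 (192 to 250) in a cluster with both T and NK markers. That cluster also carried the gamma delta T cell genes Tcrg-C1 and Tcrg-C2 and the type 1 innate lymphoid cell genes Cxcr6 and Il7r. Eomes was not among its NK markers. Fasl was 195 CPM (176 to 215) in cNK-like, 111 (105 to 116) in trNK-like and 40.8 (34.7 to 47.7) in terminal-stage cells.

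Tnf was mainly in other cells, with 421 CPM (400 to 443) in macrophage-like cells against 17.9 in trNK-like and 1.03 in terminal-stage cells. With no upper limit it was 319 in macrophage-like and 9.26 in trNK-like cells, and 1.38 and 4.09 in the 2 clusters with terminal-stage markers. Lta was highest in B-like cells (49.3, 33.5 to 70.0) and 4.07 CPM in trNK-like cells, Tnfsf11 was 12.7 (5.12 to 26.2) in T-like and 4.14 in trNK-like cells, and Tnfsf14 was 17.1 in cNK-like and 12.3 in trNK-like cells, the latter 7.66 with no upper limit.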

How the data were processed

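The authors deposited 1 table of read counts per gene and library, made per the labels with HISAT2 2.1.0 and featureCounts on mm10, whereas their methods name RSEM. For the single cells they deposited UMI counts from the BD Rhapsody pipeline on GRCm39, as 2 files that hold the same 15175 cells with different genes. These were joined and treated as 1 sample without replicates, since they hold no sample tag of a cell, and no tag is used here. Libraries of gd11.5, of other genotypes and of ATAC-seq are not analysed here.

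The counts were fitted with edgeR 4.0.16 (quasi-likelihood test, TMM scaling, R 4.3.3), 1 fit per experiment over all its groups, for genes above 10 RPKM in both libraries of any group, with Benjamini-Hochberg adjustment over all genes tested. Calls needed an adjusted p below 0.05 and a fold above 2. RPKM were computed from the counts and the gene lengths in the tables. On simulated counts 90% of 200 genes changed 4-fold were called for gd8.5 against virgin (4504 genes), 94% for trNK-T against trNK-V (4683 genes), 65% for the inhibitor with IL-21 against none (4158 genes) and 53% for IL-21 at 6 h (3503 genes). Of the genes called in these simulations, 6.25%, 5.53%, 5.11% and 4.5% had not been changed. The counts were drawn with the spread estimated by the fit, so these shares do not give the power of the real comparisons. Where a group was at 0, a fold was bounded by 3 counts per library, which covers counting error only. A count of 0 could stand beside many in the repeat, as for Tnf at 72 h in IL-15 alone (0 and 152 counts).

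Single cells with over 200 and under 2500 genes and under 10% mitochondrial UMIs were clustered with scanpy 1.11.5 (2000 variable genes, 20 components, 20 neighbours, leidenalg at resolution 0.8), leaving out ligand and receptor genes. Scrublet marked 0 of the 15175 cells, so doublets were not removed.

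The ligands and all gene lists were chosen with earlier results of these data known. Every ligand is named in every group, other ligands and receptors by counts and by name where called, signalling genes likewise up to 4, and the 5 genes most like Tnfsf4. Alternatives were no gene filter, edgeR's filterByExpr, DESeq2 1.42.0 and its size factors, limma-voom (limma 3.58.1), an unadjusted p, no fold limit, only the compared groups, the replicate number as a block, each library left out, and for single cells other limits and resolution. For the difference of the IL-21 effects most of these were added after seeing the data. The level of 1 marker gene is not reported here.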

Additional observations from a re-analysis of the deposited data

Results flagged for a closer look

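The response to IL-21 in the time course differed between times for Ltb and Tnfsf4 by a test of the difference itself in the edgeR fit over all 16 libraries. For Ltb the adjusted p was 0.0341 for 72 h minus 6 h and 0.0395 for 72 h minus 24 h, with Ltb lower with IL-21 in both libraries at 6 h and at 24 h and the libraries overlapping at 72 h. Both differences of Ltb were lost under limma-voom (adjusted p 0.0553 and 0.0746), the second also under filterByExpr, and they were lost in 5 and 6 of the 8 fits that left out 1 library (up to 0.126 and 0.167). For Tnfsf4 it was 0.000691 for 72 h minus 6 h and 0.000918 for 72 h minus 24 h, with Tnfsf4 higher with IL-21 in both libraries at each of these times and at 0 in both libraries of IL-15 alone at 72 h.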

How the results depend on the processing

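All 16 calls of ligands kept their direction in every alternative. They stayed calls in 16 of 16 under DESeq2, its size factors, no gene filter and no fold limit, in 13 with the replicate number as a block, in 12 under limma-voom, in 6 under filterByExpr, in 7 of 12 with only the compared groups and in 39 of 80 fits that left out 1 library. No fold limit and an unadjusted p reuse the main fit, so there every call and direction was fixed in advance. Counts of ligands called that moved by over 1.5 times or to or from 0 are as follows, and the cause was not tested. Smaller moves were 4 for the inhibitor against none at an unadjusted p and by DESeq2, and 5 at an unadjusted p and 3 with filterByExpr for the differences of the IL-21 effect. Without a gene filter, where all 8 ligands were tested, they were 3 for gd6.5 against virgin, 1 for gd8.5 against virgin and 2 for gd8.5 against gd6.5. They were 1 for trNK-D against trNK-V, 4 for trNK-T against trNK-V, 3 for trNK-T against trNK-D and 1 for IL-21 in the inhibitor culture. In the same order 919, 502 and 452 of 23601 genes, 471, 2022 and 587 of 26220, and 146 of 21257 were called. Both at an unadjusted p and by DESeq2 the ligand counts were 1 for trNK-D against trNK-V and 2 each for trNK-T against trNK-D, IL-21 in the inhibitor culture and the inhibitor against IL-21. Over all genes they were 265 and 187, 430 and 326, 298 and 162, and 665 and 445 in that order, unadjusted first. Limma-voom gave 1 for trNK-D against trNK-V, 0 for trNK-T against trNK-D, 0 for IL-21 at 24 h and 2 for the differences of the IL-21 effect (4 in the report), both of Ltb being lost. With filterByExpr, which tested more genes, they were 1 for trNK-T against trNK-V, 1 for 72 h against 24 h, and 0 for trNK-T against trNK-D, the inhibitor against IL-21, the inhibitor against none, and IL-21 at 6 h and 24 h. Only the compared groups, a fit with fewer samples, gave 0 for trNK-T against trNK-D, the inhibitor against IL-21, IL-21 at 72 h and 72 h against 24 h, and 2 for IL-21 at 24 h. Leaving out 1 library gave 0 to 1 for gd6.5 against virgin, 1 to 2 for trNK-T against trNK-V, 0 to 1 for trNK-T against trNK-D, 0 for the inhibitor against IL-21, 0 to 2 for the inhibitor against none, 0 for IL-21 at 6 h and at 24 h, 1 to 2 for 72 h against 24 h and 2 to 4 for the differences. A lone library left in a group is assumed to vary like the other groups.

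The replicate block gave 0 for the inhibitor against IL-21 and 1 for the inhibitor against none, and changed no other count. Same-numbered libraries shared only a number, with correlations of their deviations from −0.308 to 0.11 across gestation, −0.008 to 0.387 in the subsets, −0.431 to 0.54 in the inhibitor culture and −0.337 to 0.407 in the time course.

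Among the fold changes given in the text, those that changed sign were Ltb for IL-21 at 72 h (−0.27 without 72 h replicate 2, −0.63 without 72 h IL-21 replicate 1, and up to 0.61 without the others), Ltb at gd8.5 against virgin (1.37 without virgin replicate 1, down to −1.27) and Tnfsf4 in trNK-T against trNK-V (−0.59 without trNK-T replicate 1, up to 2.02). Tnfsf4 in trNK-like single cells was 3.80 CPM with limits read as UMIs and 36.6 with no upper limit, which lowered Ltb, Tnfsf10, Tnf and Tnfsf14 there to 23.0, 45.1, 9.26 and 7.66 CPM. With limits read as UMIs these were 189.8, 115, 50.5 and 18.6 CPM, and Tnfsf11 was 1.9. Over all genes the calls ranged widely across alternatives, from 0 to 919 for gd6.5 against virgin and from 968 to 2022 for trNK-T against trNK-V. With 2 libraries per group, ligands under about 10 RPKM are measured with little precision.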
